A study of Mus musculus with 16 samples.

Results

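The transcripts of the mitochondrial genome were followed across 16 poly(A)-selected RNA libraries, each made from mouse cortex at 5 months of age. The members were all genes of the count table whose symbol begins with mt-, and 37 of the 55385 genes met that rule. They comprised 13 mRNA genes, 2 ribosomal RNA genes and 22 transfer RNA genes. In the direction of transcription, 28 genes belonged to the heavy-strand group (12 mRNAs, both rRNAs and 14 tRNAs). The light-strand group held the other 9, which are mt-Nd6 and 8 tRNAs.

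The mitochondrial genome is a small circular DNA present in many copies per cell, and its mRNAs all encode subunits of the respiratory chain or of ATP synthase. Transcription runs around the circle in both directions as long precursor RNAs, which are cut mostly at the tRNAs that lie between the mRNAs and rRNAs. One precursor gives nearly all mRNAs and both rRNAs, while the opposite one gives mt-Nd6 as its only mRNA. In human cells most of these mRNAs carry short poly(A) tails, ND6 mRNA is an exception, and the rRNAs carry very short tails, so a poly(A) selection does not sample them alike.

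Each genotype had 4 mice, all of them 5 months old. The 5xFAD-Dp16 mice carried both the 5xFAD transgenes and the Dp16 duplication, and all 4 were male. The 5xFAD mice carry human transgenes, APP among them, with mutations of familial Alzheimer disease, expressed in neurons from a Thy1 promoter, and comprised 2 males and 2 females. The Dp16 mice have an extra copy of a segment of mouse chromosome 16 whose genes correspond to much of human chromosome 21, and comprised 2 males and 2 females. The wild-type mice were C57BL/6J, again 2 males and 2 females. Libraries held 12483286 to 20385010 counted reads, and markers of cortical cells were found in all of them: summed over 6 genes, excitatory neuron markers ranged between 4318 and 6189 CPM (reads of a gene per 1000000 counted reads of the library) in 5xFAD-Dp16, 2138 and 4182 in 5xFAD, 3391 and 6406 in Dp16, and 3049 and 6047 in wild-type cortex. In whole tissue, fewer cells of a type and less RNA per cell cannot be told apart. Summed choroid plexus and ependymal markers ranged between 10.6 and 728.5 CPM in 5xFAD-Dp16 libraries, 11.7 and 19.7 in 5xFAD, 12.1 and 116.4 in Dp16, and 16.7 and 29.7 in wild-type libraries.

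The mitochondrial genes lie close together or overlap, and their sequences set what a count can show. Sequences here come from the Gencode M21 transcripts on build GRCm38 and are written 5′ to 3′ along each gene. The ends of mt-Nd5 (chrM:13521-13565, plus strand) and mt-Nd6 (chrM:13552-13596, minus strand) are shown because the genes run towards each other and share 14 base pairs, given in capitals.
mt-Nd5: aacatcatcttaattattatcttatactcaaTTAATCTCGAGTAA
mt-Nd6: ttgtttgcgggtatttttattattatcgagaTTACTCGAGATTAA
The end of mt-Atp8 (chrM:7912-7969) and the start of mt-Atp6 (chrM:7927-7984) are shown because both are read from the plus strand and share 43 bases, given in capitals, so a read within them belongs to either gene.
mt-Atp8: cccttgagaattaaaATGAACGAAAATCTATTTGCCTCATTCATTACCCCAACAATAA
mt-Atp6: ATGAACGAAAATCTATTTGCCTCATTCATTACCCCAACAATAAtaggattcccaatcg
Base composition separated the strands as well. As transcribed, mt-Nd6 was 28.1% G and 5.97% C, while the 12 heavy-strand mRNAs were 5.88 to 16.1% G and 22.1 to 30% C.

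Nuclear copies of mitochondrial DNA set a further limit. On chromosome 1, minus strand, 7 annotated pseudogenes between 24611535 and 24616197 (4663 bases, GRCm38) matched mitochondrial mRNAs at 99.71% identity or more, and together they mirror chrM:6390-11042. The copies are Gm29216 (the last 483 bases of mt-Co1), Gm28661 (mt-Co2), Gm10925 (mt-Atp6), Gm28437 (mt-Co3), Gm28438 (mt-Nd3), Gm10222 (mt-Nd4l) and Gm28439 (the first 876 of 1378 bases of mt-Nd4). No copy of mt-Atp8 is annotated, but mt-Atp8 lies inside the same stretch. The starts of mt-Nd3 (chrM:9459-9518, plus strand) and Gm28438 (chr1:24613060-24613119, minus strand) are shown because they hold the only base, in capitals, in which this pair differs over 345 aligned bases.
mt-Nd3: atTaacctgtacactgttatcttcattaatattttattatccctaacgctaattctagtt
Gm28438: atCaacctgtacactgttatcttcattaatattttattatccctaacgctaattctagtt
The difference is T3C, counted from 1 at the 5′ end of mt-Nd3, which is position 9461 of the mitochondrial genome. The other near-identical copies had 1 mismatch (Gm29216) or 0.

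Levels per length of the heavy-strand mRNAs split along the edges of this stretch. The deposited RPKM (CPM per kilobase of gene) averaged over 16 libraries was 17087 for mt-Co1, 10755 for mt-Cytb, 9258 for mt-Nd1, 5754 for mt-Nd2, 2498 for mt-Nd5 and 2058 for mt-Nd4. The 6 heavy-strand mRNAs wholly inside the copied stretch averaged far less: mt-Co2 299.1, mt-Co3 259.3, mt-Atp6 113.8, mt-Atp8 60.9, mt-Nd3 51.6 and mt-Nd4l 26.3. Both rRNAs lay among the highest, with mt-Rnr1 (12S) at 12029 and mt-Rnr2 (16S) at 10258. mt-Nd6, on the other strand and outside the stretch, averaged 171.3, within the range of the mRNAs inside it.

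**Figure D1:**
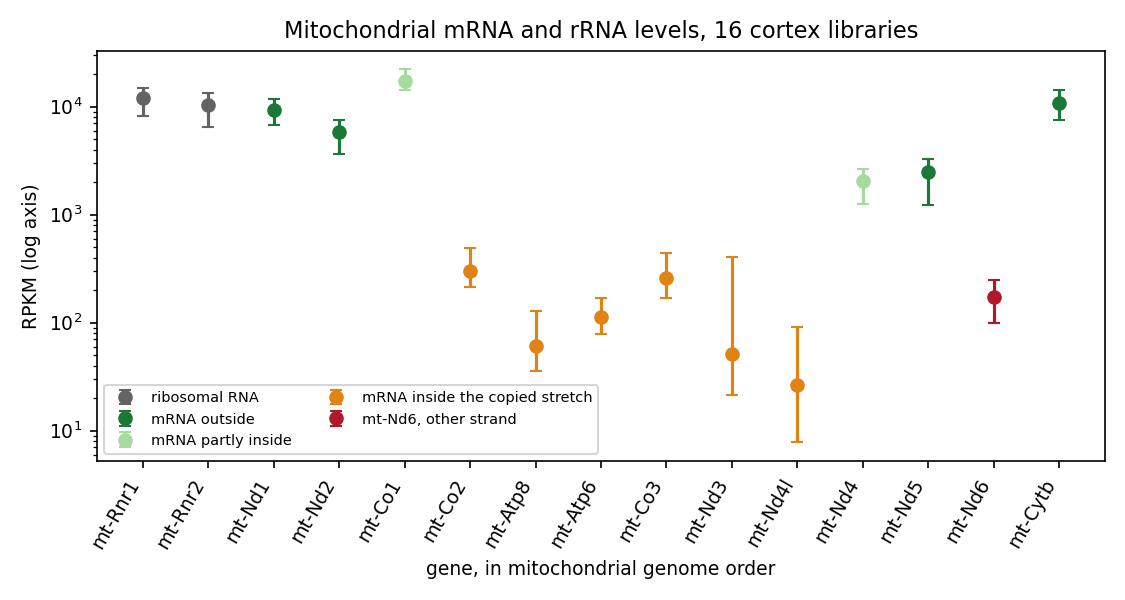
RPKM (log axis) of the 13 mitochondrial mRNAs and both rRNAs in genome order. Points are means over 16 libraries and bars run from the lowest to the highest library; of the 12 heavy-strand mRNAs, the 6 inside the copied stretch average 26.3 to 299.1, below the 4 outside it at 2498 to 10755 and the 2 partly inside at 2058 and 17087, while mt-Nd6 of the other strand lies outside it at 171.3.

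Counts assigned to the chromosome 1 copies were of the same size as those assigned to the 5 wholly matching mitochondrial genes. Of the reads counted for the pair, the copy held 58.7% for mt-Co3, 56.4% for mt-Atp6, 49.3% for mt-Nd4l, 47.6% for mt-Co2 and 44.5% for mt-Nd3, but 0.974% for mt-Nd4 and 0.484% for mt-Co1. How reads that match both places were treated is not given in the sources used here, and the part of the copies in the low values was not tested. Values of mt-Co2, mt-Atp8, mt-Atp6, mt-Co3, mt-Nd3 and mt-Nd4l are therefore uncertain. The limit also holds in part for mt-Nd4 and mt-Co1, of which the near-identical copies cover 63.6% and 31.3%. The other 10 annotated copies of any mitochondrial mRNA were less alike; the one with most reads, Gm13340 on chromosome 2 (97.61% identical to mt-Co1), had 66460 against 7321966 for mt-Co1, and the copy of mt-Nd6, Gm11408, had 3 reads in all.

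The mitochondrial genome supplied 8.06, 8.94, 9.48 and 8.52% of counted reads in 5xFAD-Dp16 cortex, 11, 10.6, 8.11 and 8.78% in 5xFAD, 10.3, 8.95, 9.45 and 8.68% in Dp16, and 7.71, 8.02, 8.16 and 8.10% in wild-type cortex. The 4 Dp16 libraries all lay above the 4 wild-type libraries, while single libraries of 5xFAD and 5xFAD-Dp16 fell within the wild-type range. The means were 8.75 ± 0.605% in 5xFAD-Dp16, 9.62 ± 1.40% in 5xFAD, 9.34 ± 0.712% in Dp16 and 8.0 ± 0.20% in wild-type cortex (SD, n = 4 each). The 95% Wilson interval of a library's share was at most ± 0.016 percentage points and covers counting error only, so the spread between mice set the precision. The share is a description with no test. It leaves out reads assigned to the chromosome 1 copies, as do the mRNA shares that follow.

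The mean ratio of mRNA to rRNA reads was 3.0 in 5xFAD-Dp16, 2.05 in 5xFAD, 2.13 in Dp16 and 2.13 in wild-type cortex. Single libraries of each other genotype lay within the 5xFAD-Dp16 range of 2.65 to 3.44. No test was made of this division. The 13 mRNAs made up 6.54 ± 0.449% of reads in 5xFAD-Dp16, 6.41 ± 1.67% in 5xFAD, 6.33 ± 0.759% in Dp16 and 5.33 ± 0.629% in wild-type cortex (SD, n = 4 each). The rRNAs made up 2.20 ± 0.274% in 5xFAD-Dp16, 3.21 ± 0.278% in 5xFAD, 3.02 ± 0.404% in Dp16 and 2.66 ± 0.576% in wild-type cortex. All 4 5xFAD-Dp16 libraries (1.81 to 2.45%) lay below all 5xFAD (2.98 to 3.55%) and all Dp16 libraries (2.52 to 3.40%), and overlapped the wild-type range of 1.86 to 3.21%. Within 5xFAD, both females held more mRNA reads (8.01 and 7.62%) than both males (4.56 and 5.47%). The sexes overlapped in Dp16 (females 7.03 and 5.81%, males 5.55 and 6.93%). They also overlapped in wild-type cortex (females 4.80 and 6.23%, males 5.03 and 5.26%).

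**Figure D2:**
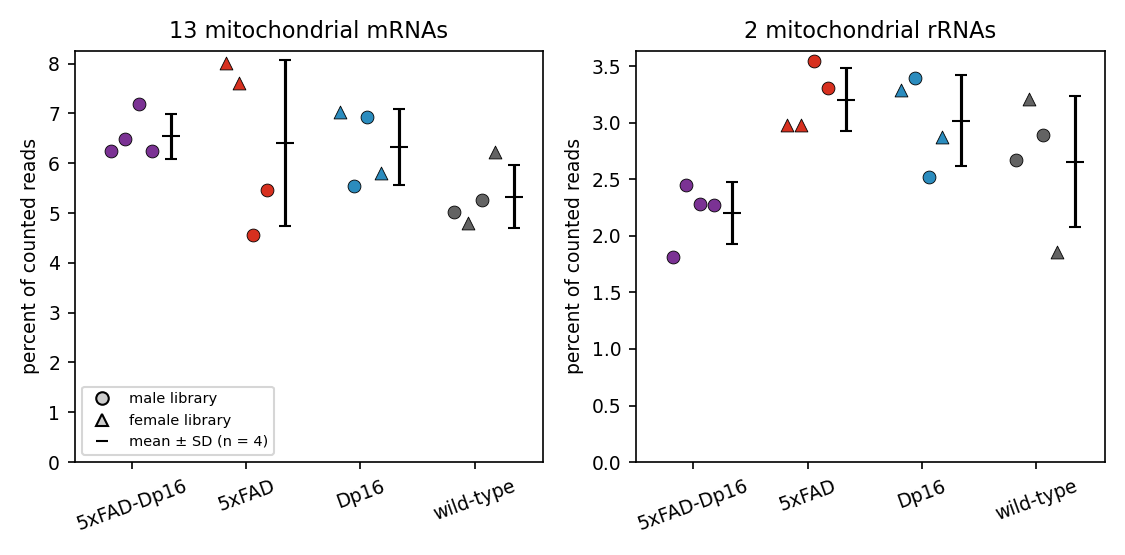
Percent of counted reads from the 13 mitochondrial mRNAs (left) and both rRNAs (right) in each library, by genotype; circles are males, triangles females, and bars the mean ± SD of 4. In the rRNA panel all 5xFAD-Dp16 libraries (1.81 to 2.45%) sit below all 5xFAD (2.98 to 3.55%) and Dp16 libraries (2.52 to 3.40%).

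Of the 37 members, 24 passed the count filter: 13 mRNAs, both rRNAs and 9 tRNAs. With edgeR's quasi-likelihood test, a sex term and Benjamini-Hochberg adjustment over all 17019 tested genes at 0.05, 1 of the 24 was called in 5xFAD against wild-type, where 0.176% of all tested genes were called. That gene was mt-Nd6. No member was called in 5xFAD-Dp16 against wild-type (0.0470% of all genes called), in Dp16 against wild-type (0.0176%), in 5xFAD-Dp16 against 5xFAD (0%), in 5xFAD-Dp16 against Dp16 (0.0176%) or in the interaction (0%), which is the Dp16 difference on the 5xFAD background minus that without it. At an unadjusted p under 0.05 these 5 comparisons held 7, 2, 8, 5 and 7 members, where 10.4, 3.88, 23.8, 5.29 and 9.35% of all genes passed. DESeq2's Wald test called 0, 0, 3, 0 and 0 members there, where it called 0.623, 0.206, 4.59, 0.147 and 0.123% of all genes. In 5xFAD against wild-type it called mt-Nd6 alone of the members, and 1.37% of all genes.

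mt-Nd6 encodes a membrane subunit of complex I, the NADH dehydrogenase of the respiratory chain. Its level was 127.9, 127.5, 127.7 and 121.6 CPM in 5xFAD cortex and 60.1, 95.0, 63.0 and 87.8 CPM in wild-type cortex. The groups did not overlap, and mt-Nd6 rose in 5xFAD by 0.80 on the log2 scale (SE 0.15, 1.74-fold, edgeR adjusted p = 0.0314). Both sexes showed the order: the 5xFAD males had 127.7 and 121.6 CPM and the wild-type males 60.1 and 63.0, while the 5xFAD females had 127.9 and 127.5 and the wild-type females 95.0 and 87.8. The call rested on narrow margins: leaving out each of the 16 libraries in turn gave log2 values of 0.68 to 0.87 and adjusted p-values of 0.0211 to 0.152, and the call was lost without wild-type replicate 1, 3 or 4, without 5xFAD replicate 3 or 4, without Dp16 replicate 1 and without 5xFAD-Dp16 replicate 3. Without wild-type replicate 2 and 5xFAD replicate 3 together, a setting added after the data were seen, the value was 0.75 (adjusted p = 0.0857). The call was also lost without a sex term (0.76, adjusted p = 0.107), in males alone (1.09, adjusted p = 0.0719) and in a fit of both genotypes alone (0.78, adjusted p = 0.378).

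The library kit keeps strand, but the strand setting of the counting is not given in the sources used here. Reads of mt-Nd6 and reads from the opposite strand of the same stretch, which the heavy-strand precursor crosses between mt-Nd5 and mt-Cytb, therefore cannot be told apart. Summed microglial markers (6 genes, none at 0) moved with the same group, at 579.5 to 868.3 CPM in 5xFAD against 461.2 to 531.8 in wild-type cortex. Summed endothelial markers (6 genes, none at 0) were at 67.4 to 109.2 CPM in 5xFAD against 125.9 to 174.8 in wild-type cortex. The part of either in the mt-Nd6 difference was not tested.

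In the other genotypes mt-Nd6 lay lower than in 5xFAD. It had 73.6, 100.2, 90.7 and 76.1 CPM in 5xFAD-Dp16 cortex and 78.7, 51.8, 61.4 and 79.3 CPM in Dp16 cortex. All 4 5xFAD-Dp16 libraries were below all 4 5xFAD libraries, with a log2 value of -0.50 (SE 0.15) that missed the threshold (edgeR adjusted p = 0.155). Against wild-type, the log2 value was 0.29 (SE 0.16, adjusted p = 0.502) in 5xFAD-Dp16 and -0.17 (SE 0.14, adjusted p = 1.0) in Dp16. The interaction was -0.34 (SE 0.21, adjusted p = 0.534).

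Set against its heavy-strand counterparts, mt-Nd6 gave 11.8, 15.5, 12.6 and 12.2 reads for every 10000 reads of the 12 heavy-strand mRNAs in 5xFAD-Dp16 cortex. The values were 16, 16.8, 28.1 and 22.3 in 5xFAD, 11.2, 9.34, 8.87 and 13.7 in Dp16, and 11.9, 19.8, 12 and 14.1 in wild-type cortex. The 4 5xFAD-Dp16 libraries lay below the 4 5xFAD libraries, a log2 difference of -0.64 (0.64-fold). The two-sided exact permutation test gave p = 0.0286, the smallest that 70 assignments of 4 against 4 allow, and 0.143 after Benjamini-Hochberg adjustment over the 5 comparisons. In the remaining pairs the groups overlapped: the log2 difference was 0.52 for 5xFAD against wild-type (exact p = 0.114, adjusted 0.190), -0.42 for Dp16 against wild-type (0.114, adjusted 0.190), 0.29 for 5xFAD-Dp16 against Dp16 (0.171, adjusted 0.214) and -0.13 for 5xFAD-Dp16 against wild-type (0.657, adjusted 0.657). None passed after adjustment, and since 4 against 4 gives at least 0.143 for the smallest of 5 unless several comparisons reach 0.0286, the design leaves little room to pass. The permutation test took no account of sex, and the 5xFAD-Dp16 mice were all male. The 5xFAD males had 28.1 and 22.3 reads and the females 16 and 16.8. The wild-type males had 11.9 and 12 and the females 19.8 and 14.1.

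**Figure D3:**
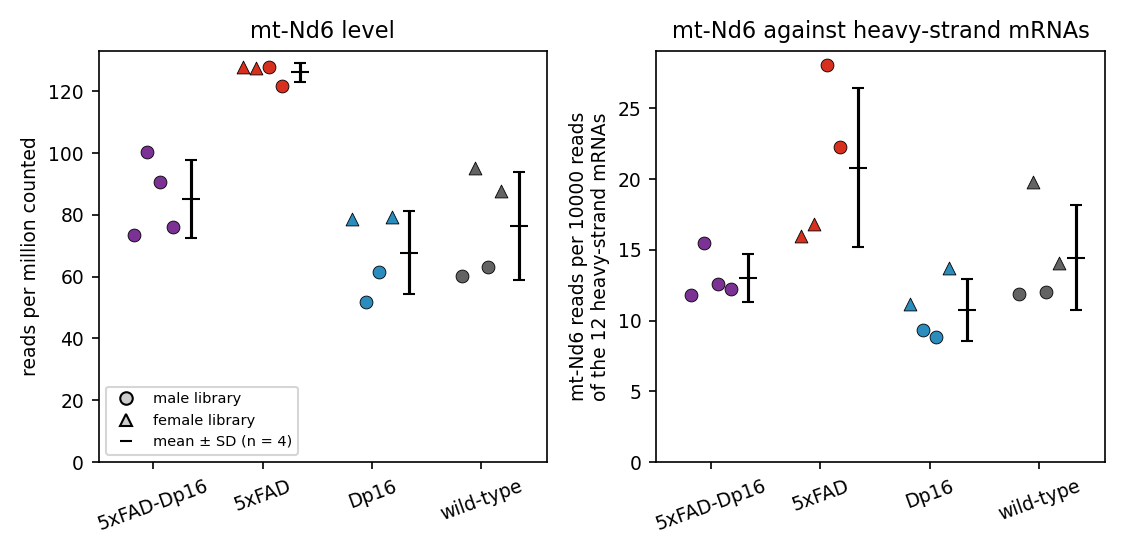
mt-Nd6 in CPM (left) and as reads per 10000 reads of the 12 heavy-strand mRNAs (right) in each library, by genotype, with the mean ± SD of 4. The 5xFAD libraries sit at 121.6 to 127.9 CPM, above every other library (at most 100.2), while on the right the 5xFAD range of 16 to 28.1 overlaps the wild-type range of 11.9 to 19.8.

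The heavy-strand mRNAs had mostly positive log2 values against wild-type, none past the threshold. In 5xFAD-Dp16 10 of 12 were positive with a median of 0.34, in 5xFAD 11 of 12 with 0.29, and in Dp16 11 of 12 with 0.26, beside medians of 0.02, 0.02 and 0.00 and shares of positive values of 52.4, 52.1 and 50.4% over all tested genes. These 3 comparisons share the wild-type libraries. The 4 heavy-strand mRNAs outside the copied stretch were positive in each, with medians of 0.41 in 5xFAD-Dp16, 0.23 in 5xFAD and 0.29 in Dp16. Among males alone the 5xFAD values turned: 5 of the 12 were positive with a median of -0.03, and 1 of the 4 outside the stretch with a median of -0.06.

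Of the heavy-strand mRNAs outside the copied stretch, mt-Nd1, mt-Nd2 and mt-Nd5 encode core membrane subunits of complex I. mt-Nd5 had the largest value of the 4 against wild-type in 5xFAD-Dp16. It counted 5791, 5506, 5966 and 4664 CPM in 5xFAD-Dp16 cortex and 3236, 2703, 3543 and 5614 CPM in wild-type cortex. Wild-type replicate 4 lay within the 5xFAD-Dp16 range and the other 3 below it, giving a log2 value of 0.70 (SE 0.24, edgeR adjusted p = 0.443). In 5xFAD, mt-Nd5 had 6023, 5431, 2226 and 3502 CPM, the females high and the males low, and in Dp16 it had 5350.4, 3733, 5721 and 3879 CPM. The log2 values against wild-type were 0.17 (SE 0.23, adjusted p = 0.805) in 5xFAD and 0.34 (SE 0.23, adjusted p = 1.0) in Dp16. mt-Nd1 averaged 9539 ± 631 CPM in 5xFAD-Dp16, 8996 ± 2258 in 5xFAD, 9280 ± 1241 in Dp16 and 7627 ± 1086 in wild-type cortex (SD, n = 4 each), with log2 values against wild-type of 0.39 in 5xFAD-Dp16, 0.25 in 5xFAD and 0.29 in Dp16. mt-Nd2 gave 0.41 in 5xFAD-Dp16, 0.21 in 5xFAD and 0.29 in Dp16. mt-Nd4, another complex I subunit gene that lies partly inside the stretch, gave 0.46 in 5xFAD-Dp16, 0.20 in 5xFAD and 0.30 in Dp16.

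mt-Cytb encodes cytochrome b, the single mitochondrially encoded subunit of complex III. It averaged 13377 ± 1019 CPM in 5xFAD-Dp16, 12870 ± 3718 in 5xFAD, 12375 ± 1828 in Dp16 and 10593 ± 1547 in wild-type cortex, with log2 values against wild-type of 0.41 in 5xFAD-Dp16, 0.29 in 5xFAD and 0.23 in Dp16 (SD, n = 4 each).

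mt-Co1 encodes the catalytic subunit of complex IV, cytochrome c oxidase. It took 29.6% of the reads counted for the members, a share that leaves out reads assigned to the chromosome 1 copies. It had 24696, 26096, 29511 and 27057 CPM in 5xFAD-Dp16 cortex, 34133, 33222, 22060.4 and 24639 in 5xFAD, 30360.1, 24581, 27772 and 25536 in Dp16, and 22335, 22721, 23296 and 24373 in wild-type cortex. The 5xFAD-Dp16 and the Dp16 libraries lay above every wild-type library, by log2 values of 0.26 (SE 0.12, edgeR adjusted p = 0.484) and 0.22 (SE 0.12, adjusted p = 1.0). In 5xFAD the value was 0.32 (SE 0.12, adjusted p = 0.346), with replicate 3 below all wild-type libraries.

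**Figure D4:**
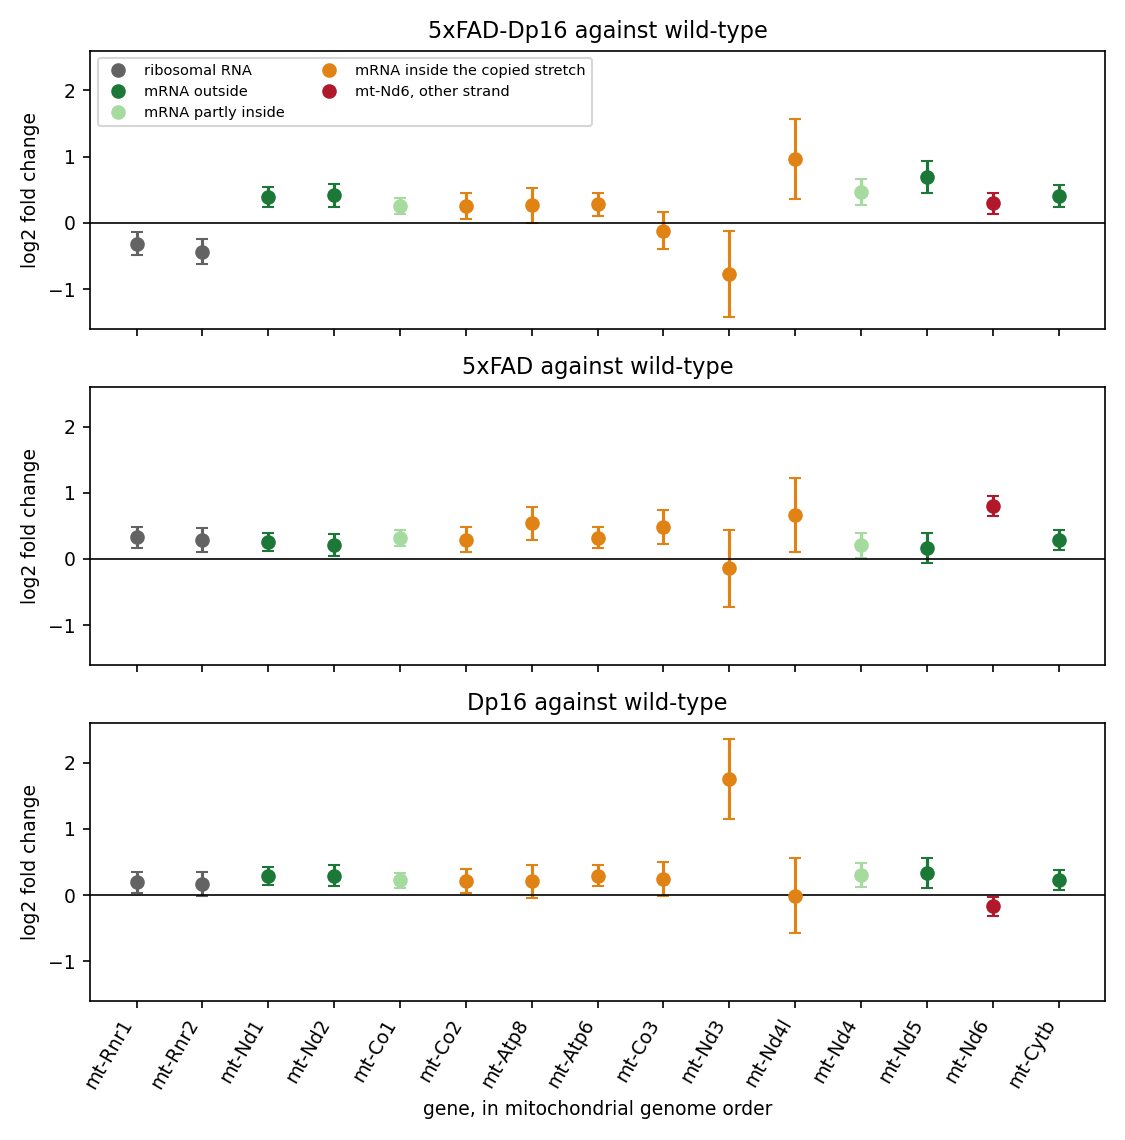
log2 fold change against wild-type of the 13 mRNAs and both rRNAs in genome order, for 5xFAD-Dp16, 5xFAD and Dp16 (top to bottom); bars are the standard error and colours give the place relative to the copied stretch. In 5xFAD-Dp16 the rRNAs are at -0.31 and -0.43 and the 4 heavy-strand mRNAs outside the stretch at 0.39 to 0.70, while mt-Nd6 in 5xFAD (0.80) is the one value past the threshold.

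The ribosomal RNAs form the 2 subunits of the mitochondrial ribosome and precede the mRNAs on the heavy-strand precursor. mt-Rnr2 had 10268, 14259, 13204 and 13011 CPM in 5xFAD-Dp16 cortex, 17160.2, 16772, 21238 and 19809 in 5xFAD, 19363, 20383, 14396 and 16887 in Dp16, and 15982, 19332, 16810.4 and 10765 in wild-type cortex. The 5xFAD-Dp16 libraries lay below all 5xFAD and all Dp16 libraries; of the wild-type libraries only replicate 4 fell in their range. The log2 value was -0.72 (SE 0.19, 0.61-fold, edgeR adjusted p = 0.155) against 5xFAD and -0.61 (SE 0.20, adjusted p = 0.758) against Dp16. mt-Rnr1 averaged 9366 ± 1027 CPM in 5xFAD-Dp16, 13281 ± 692 in 5xFAD, 12430 ± 1372 in Dp16 and 10872 ± 2186 in wild-type cortex (SD, n = 4 each). Its log2 values were -0.64 (SE 0.17, adjusted p = 0.155) against 5xFAD and -0.50 (SE 0.17, adjusted p = 0.758) against Dp16, again with no overlap.

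Some cell type markers differed between part of the same groups. Summed over 6 genes each, none at 0, excitatory neuron markers were at 4318 to 6189 CPM in 5xFAD-Dp16 against 2138 to 4182 in 5xFAD, and microglial markers at 498.0 to 577.5 in 5xFAD-Dp16 against 579.5 to 868.3 in 5xFAD. Oligodendrocyte markers were at 6248 to 6473 CPM in 5xFAD-Dp16 against 6690.2 to 8661 in Dp16 and 7525 to 8601 in wild-type cortex, and inhibitory neuron markers at 1138 to 1175 in 5xFAD-Dp16 against 1284 to 1327 in Dp16. None of these pairs of ranges overlapped, but no list set 5xFAD-Dp16 apart from both 5xFAD and Dp16. In Dp16, excitatory neuron markers were at 3391 to 6406 CPM and microglial markers at 446.1 to 539.9, overlapping 5xFAD-Dp16. In 5xFAD, oligodendrocyte markers were at 5213 to 7547 CPM and inhibitory neuron markers at 1098 to 1255, again overlapping. Astrocyte and endothelial markers overlapped too. The part of the markers in the values of the rRNAs, mt-Nd6, mt-Co1 and the tRNAs in these comparisons was not tested.

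Against wild-type, mt-Rnr1 and mt-Rnr2 gave -0.31 and -0.43 in 5xFAD-Dp16, 0.33 and 0.29 in 5xFAD and 0.19 and 0.17 in Dp16. The interaction was -0.83 (SE 0.23) for mt-Rnr1 and -0.90 (SE 0.27) for mt-Rnr2, each with an edgeR adjusted p of 0.522. For 5xFAD-Dp16 against 5xFAD, a fit of these groups alone called 9 members and a fit of males alone 10, with mt-Rnr1, mt-Rnr2, mt-Nd5 and mt-Nd6 among them, but these fits also called 31.3% and 22.5% of all tested genes.

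Across the 16 libraries the members moved in blocks. As a description, the levels of the 4 heavy-strand mRNAs outside the copied stretch correlated at r = 0.944 to 0.986 with each other and those of mt-Rnr1 and mt-Rnr2 at 0.980. Those mRNAs and the rRNAs correlated at -0.644 to -0.284, and mt-Nd6 correlated at -0.0141 to 0.199 with the mRNAs and 0.193 to 0.248 with the rRNAs. These points share libraries, depth and the same scaling.

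The mRNA to rRNA ratio was 3.44, 2.65, 3.15 and 2.75 in 5xFAD-Dp16, 2.69, 2.56, 1.29 and 1.65 in 5xFAD, 2.14, 1.63, 2.75 and 2.02 in Dp16, and 1.89, 1.49, 1.82 and 3.34 in wild-type libraries. It followed a property of the nuclear genes of the same library. For each library, Spearman's rho was taken across the tested nuclear genes between gene length and the log ratio of that library to the mean library, so a positive rho means that longer genes had more reads. That rho was 0.450, 0.101, 0.358 and 0.203 in 5xFAD-Dp16, 0.229, 0.0808, -0.462 and -0.239 in 5xFAD, -0.0406, -0.142, 0.264 and -0.308 in Dp16, and -0.279, -0.361, -0.130 and 0.435 in wild-type libraries. All 5xFAD-Dp16 libraries were above 0 and the other genotypes had both signs. Over 16 libraries, the log2 mRNA to rRNA ratio and this rho had Pearson's r = 0.956 and Spearman's rho = 0.947 (permutation p = 2e-05 each, the smallest that 100000 resamples can give, adjusted 6e-05 over 3 relations, all chosen after the values were seen). Without 5xFAD replicate 3 and 5xFAD-Dp16 replicate 1, r was 0.938, and with the genotype means taken out it was 0.938. The share of mitochondrial reads (r = 0.298, permutation p = 0.264, adjusted 0.264; Spearman's rho = 0.282, p = 0.290, adjusted 0.290; r = 0.380 without the same libraries, 0.555 within genotypes) and the log2 ratio of mt-Nd6 to heavy-strand mRNAs (r = -0.459, permutation p = 0.0733, adjusted 0.11; Spearman's rho = -0.368, p = 0.165, adjusted 0.247; r = -0.247 without the same libraries, -0.641 within genotypes) were not shown to follow it.

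With the length trend of each library entered in the fit, mt-Rnr1 and mt-Rnr2 together had a median log2 value of -0.42 in 5xFAD-Dp16 against 5xFAD, beside -0.68 without that step. The 4 heavy-strand mRNAs outside the copied stretch had 0.46, beside 0.17. mt-Nd6 had -0.07, beside -0.50, and in 5xFAD against wild-type 0.57 (edgeR adjusted p = 0.0813), beside 0.80. In 5xFAD-Dp16, mt-Nd6 had 0.50 against wild-type, beside 0.29, and 0.72 against Dp16, beside 0.46, neither past the threshold. Medians over all genes with that step lay between -0.09 and -0.02 in these comparisons.

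**Figure D5:**
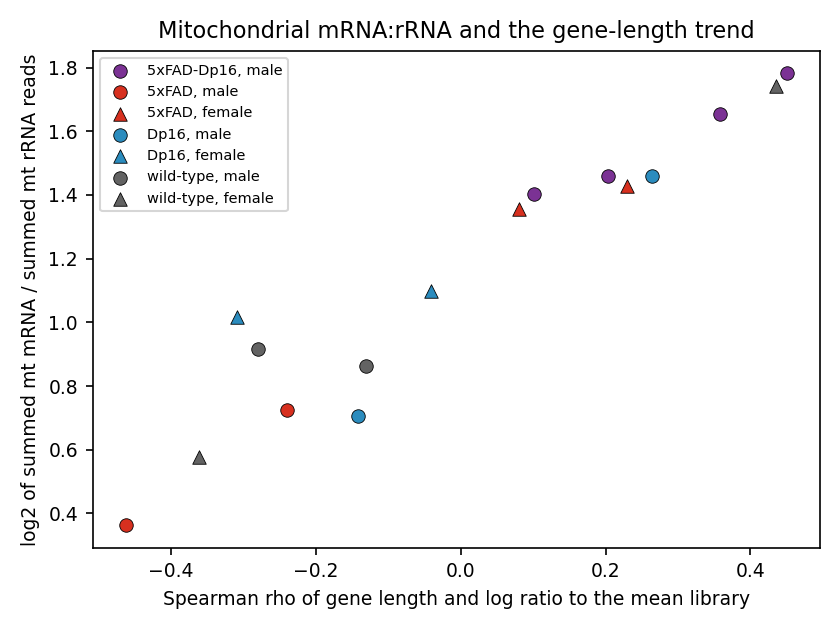
log2 of summed mitochondrial mRNA over rRNA reads against the gene-length rho of the nuclear genes, 1 point per library (circles males, triangles females). The points rise together (r = 0.956 over 16 libraries), with 5xFAD replicate 3 at the lower left and 5xFAD-Dp16 replicate 1 at the upper right.

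Inside the copied stretch, mt-Co2 and mt-Co3 encode core subunits of complex IV, mt-Atp6 and mt-Atp8 subunits of ATP synthase, and mt-Nd3 and mt-Nd4l subunits of complex I. mt-Co2 averaged 218.9 ± 79.9 CPM in 5xFAD-Dp16, 213.7 ± 34.3 in 5xFAD, 206.9 ± 10.8 in Dp16 and 179.0 ± 25.7 in wild-type cortex (SD, n = 4 each). Summed with its copy, it averaged 392.2 ± 107.4 CPM in 5xFAD-Dp16, 421.1 ± 95.5 in 5xFAD, 438.6 ± 132.5 in Dp16 and 325.4 ± 46.1 in wild-type cortex. mt-Co3 averaged 163.2 ± 25 CPM in 5xFAD-Dp16, 244.7 ± 62.2 in 5xFAD, 219.9 ± 93.2 in Dp16 and 185.3 ± 37.3 in wild-type cortex, and the copy's part of the pair reached 75.9% in a 5xFAD library and was as low as 39.3% in a wild-type library. Summed with its copy, mt-Co3 averaged 391.5 ± 210.7 CPM in 5xFAD-Dp16, 656.9 ± 202.1 in 5xFAD, 562.8 ± 439.8 in Dp16 and 339.2 ± 45 in wild-type cortex. The summed 5xFAD-Dp16 mean lay above that of wild-type only with replicate 3, at 706.9 CPM. The other 5xFAD-Dp16 libraries, at 304.1, 281.4 and 273.4, lay below the wild-type range of 307.3 to 405.8. mt-Atp6 averaged 78.9 ± 15.3 CPM in 5xFAD-Dp16, 82.9 ± 25.3 in 5xFAD, 81.7 ± 3.80 in Dp16 and 66.7 ± 7.90 in wild-type cortex. Log2 values against wild-type in 5xFAD-Dp16, 5xFAD and Dp16 were 0.25, 0.29 and 0.21 for mt-Co2, 0.28, 0.32 and 0.29 for mt-Atp6, and 0.26, 0.54 and 0.21 for mt-Atp8. mt-Co3 gave -0.12 in 5xFAD-Dp16, 0.48 in 5xFAD and 0.24 in Dp16, and its value in 5xFAD-Dp16 changed sign with the setting. mt-Nd4l, with 30 to 478 reads a library, gave 0.97 (SE 0.60) in 5xFAD-Dp16, 0.66 (SE 0.56) in 5xFAD and -0.01 (SE 0.57) in Dp16.

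mt-Nd3 held 1 library far from the rest. Dp16 replicate 2 had 2442 reads (139.7 CPM), while the other 3 Dp16 libraries had 10.4 to 13.3 CPM. The 12 libraries of the other genotypes lay in the same low range, at 7.48 to 9.56 CPM in 5xFAD-Dp16, 8.18 to 9.87 in 5xFAD and 8.01 to 13.5 in wild-type cortex. Its copy Gm28438 did not share the excess, with 11.4% of the pair's reads in that library and 49.8 to 69.4% in all others. The log2 value in Dp16 against wild-type was 1.75 (SE 0.61, edgeR adjusted p = 0.973) and 0.17 without that library; 5xFAD-Dp16 against Dp16 gave -2.52 (adjusted p = 0.505) with it and -0.44 without.

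Transfer RNAs, which carry amino acids to the mitochondrial ribosome and do not normally carry long poly(A) tails, were rare. All 22 together took 30.8 ± 3.33 CPM in 5xFAD-Dp16, 44.8 ± 6.50 in 5xFAD, 43.4 ± 2.89 in Dp16 and 36.3 ± 7.99 in wild-type cortex (SD, n = 4 each). The 5xFAD-Dp16 libraries (27.9 to 34.3) lay below all 5xFAD (40.2 to 54.4) and all Dp16 libraries (39.8 to 46.7). The tRNA genes with most reads in each direction, mt-Tm for methionine (chrM:3845-3913, plus strand) and mt-Tp for proline (chrM:15356-15422, minus strand), are shown whole.
mt-Tm: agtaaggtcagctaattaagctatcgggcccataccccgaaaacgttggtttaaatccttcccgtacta
mt-Tp: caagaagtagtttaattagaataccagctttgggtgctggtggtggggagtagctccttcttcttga
mt-Tm averaged 7.42 ± 2.23 CPM in 5xFAD-Dp16, 12 ± 3.19 in 5xFAD, 12.5 ± 2.19 in Dp16 and 10.6 ± 6.12 in wild-type cortex. mt-Tp averaged 3.34 ± 0.490 CPM in 5xFAD-Dp16, 3.92 ± 1.69 in 5xFAD, 3.92 ± 1.48 in Dp16 and 2.77 ± 0.997 in wild-type cortex. Of the other tRNAs that passed the filter, mt-Tw averaged 8.40 to 10.5 CPM by genotype, mt-Tt 3.95 to 6.20, mt-Ti 2.14 to 3.51, mt-Tv 1.58 to 3.18, mt-Tq 1.26 to 3.31, mt-Ta 0.557 to 1.73 and mt-Tl1 0.480 to 1.18. Against 5xFAD, all 9 had negative log2 values in 5xFAD-Dp16 (median -0.74), none past the threshold. Over all tested genes 49.8% were positive there, with a median of -0.002. Values of the tRNAs with the length trend entered are not given here. The other 13 tRNA genes did not pass the filter, and mt-Tk, mt-Tr and mt-Ts2 were at 0 in every library, which allows up to 0.147 to 0.240 CPM a library (3 counts; counting error only).

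Nuclear genes supply the rest of the mitochondrial expression system. Of the lists examined (227 tested), the edgeR fit of all 16 libraries with a sex term called no gene in any of the 6 comparisons. At an unadjusted p under 0.05, 57 passed in 5xFAD-Dp16, 14 in 5xFAD and 9 in Dp16 against wild-type, 118 in 5xFAD-Dp16 against 5xFAD, 22 against Dp16 and 23 in the interaction, where 10.4, 10.7, 3.88, 23.8, 5.29 and 9.35% of all tested genes passed. DESeq2 called 3, 1, 2, 15, 0 and 1 in the same comparisons, and 0.623, 1.37, 0.206, 4.59, 0.147 and 0.123% of all genes. With the length trend of each library entered, edgeR called 1 complex III subunit in 5xFAD against wild-type (0.347% of all genes called). In 5xFAD-Dp16 against 5xFAD it then called 1 gene of the duplicated segment (0.0176%). In 5xFAD-Dp16 against wild-type, where 0.0470% of all genes were called, the 71 nuclear subunits of complexes I, III, IV and V had a median log2 value of -0.44 with 2 positive, opposite in sign to the heavy-strand mRNAs. The 36 nuclear complex I subunits had a median of -0.42 with 0 positive. Ndufs5 averaged 199.8 ± 19.5 CPM in 5xFAD-Dp16 and 272.8 ± 73.3 in wild-type cortex (SD, n = 4 each; log2 value -0.59, SE 0.23, edgeR adjusted p = 0.449). Of complex IV, Cox8a averaged 554.5 ± 20 CPM in 5xFAD-Dp16 and 733.9 ± 140.5 in wild-type cortex (-0.49, SE 0.15, adjusted p = 0.390). The 77 tested mitochondrial ribosomal proteins had a median of -0.36 with 3 positive. In 5xFAD-Dp16 against 5xFAD, the subunits had a median of -0.58 and the ribosomal proteins -0.49. With the length trend entered these were -0.24 and -0.25, where the median over all genes was -0.04. A fit of males alone (4 against 2) called 55 of the 71 subunits and 49 of the 77 ribosomal proteins there. That fit called 22.5% of all genes.

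In 5xFAD against wild-type the medians were positive: 0.11 with 54 of 71 positive for the subunits and 0.12 with 63 of 77 for the ribosomal proteins, beside 0.02 over all genes. With the length trend entered both lay slightly below 0, as did the median over all genes, and the ribosomal proteins stayed above that median. In Dp16 the medians were -0.08 with 12 positive and -0.03 with 24 positive. With the length trend entered, the subunits had medians of -0.28 in 5xFAD-Dp16, -0.05 in 5xFAD (25 of 71 positive) and -0.13 in Dp16, beside -0.09, -0.04 and -0.07 over all genes. The ribosomal proteins had -0.28 in 5xFAD-Dp16, -0.02 in 5xFAD (35 of 77 positive) and -0.10 in Dp16. The heavy-strand mRNAs had 0.49, 0.12 and 0.20 there.

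The 20 genes of mitochondrial transcription and DNA maintenance had medians of -0.12, 0.21 and 0.06 in 5xFAD-Dp16, 5xFAD and Dp16 against wild-type. Tfb1m, a mitochondrial rRNA methyltransferase, averaged 11.3 ± 3.18 CPM in 5xFAD and 7.31 ± 1.48 in wild-type cortex (log2 value 0.67, SE 0.21, edgeR adjusted p = 0.283). Mterf3, a negative regulator of mitochondrial transcription, averaged 19.3 ± 4.2 CPM in 5xFAD and 13.1 ± 3.25 in wild-type cortex (0.61, SE 0.21, adjusted p = 0.305). The 23 genes of mitochondrial RNA processing and stability had medians of -0.11 in 5xFAD-Dp16, 0.14 in 5xFAD and -0.02 in Dp16. Among them Elac2, which cuts the 3′ ends of tRNAs from the precursor, averaged 19.8 ± 1.53 CPM in 5xFAD-Dp16 and 14.1 ± 5.20 in wild-type cortex (0.56, SE 0.26, adjusted p = 0.479). The 22 mitochondrial aminoacyl-tRNA synthetases and related enzymes had medians of -0.08 in 5xFAD-Dp16, 0.00 in 5xFAD and -0.05 in Dp16. The 13 regulators of mitochondrial biogenesis had medians of 0.11 in 5xFAD-Dp16, -0.04 in 5xFAD and -0.02 in Dp16.

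The segment duplicated in Dp16 holds 7 listed genes of mitochondrial function. All 7 had positive log2 values in Dp16 against wild-type (median 0.61, where the median over all genes was 0.00) and in 5xFAD-Dp16 against wild-type (median 0.24). In 5xFAD, which lacks the duplication, 5 of the 7 were positive against wild-type (median 0.17). Mrpl39, of the large mitochondrial ribosomal subunit, averaged 56.1 ± 5.97 CPM in 5xFAD-Dp16, 52.0 ± 6.16 in Dp16 and 34.1 ± 2.13 in wild-type cortex (SD, n = 4 each), with log2 values of 0.63 (edgeR adjusted p = 0.277) and 0.61 (adjusted p = 0.397). In 5xFAD, Mrpl39 averaged 42.4 ± 5.75 CPM, a log2 value of 0.35 against wild-type (edgeR adjusted p = 0.405). Gabpa, a transcription factor of nuclear respiratory genes, gave 0.74 in both 5xFAD-Dp16 and Dp16 (adjusted p = 0.319 and 0.405). Mrps6, of the small ribosomal subunit, gave 0.03 in 5xFAD-Dp16 and 0.75 in Dp16. The ATP synthase subunit genes gave 0.24 in 5xFAD-Dp16 and 0.65 in Dp16 for Atp5j, and 0.10 in 5xFAD-Dp16 and 0.50 in Dp16 for Atp5o. Sod1, the cytosolic superoxide dismutase, gave 0.24 in 5xFAD-Dp16 and 0.53 in Dp16, and Nrip1, a nuclear receptor corepressor, 0.58 in 5xFAD-Dp16 and 0.42 in Dp16.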

How the data were processed

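The count table held raw read counts per gene for 16 libraries, deposited by the authors as whole numbers without normalization, and the second table held RPKM values deposited by the authors. Per the submitters' processing notes, bcl2fastq, FastQC 0.11.5, HISAT2 2.1.0, SAMtools 1.5 and HTSeq 0.6.1 were used with build GRCm38; their roles, the strand setting and the handling of reads with several matches are not given in the sources used here. Per the labels' protocols, poly(A)-selected, strand-specific libraries were sequenced as read pairs. RPKM served for levels between genes and for gene lengths.

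Genes were kept by filterByExpr, scaled by TMM and fitted with edgeR 4.0.16 (R 4.3.3), with a mean per genotype and a sex term over all 16 libraries, robust quasi-likelihood dispersions and Benjamini-Hochberg adjustment over 17019 genes at 0.05. CPM are counts per 1000000 counted reads of the library, without TMM. SE is the log2 value divided by the root of F. The code of the fit was run on simulated counts with the same dispersion for every gene and no sex effect or length trend. That run does not test how well the fit suits these data. The mt-Nd6 ratio was compared by two-sided exact permutation of 4 against 4 samples, without a sex term. Copies were searched with blastn 2.17.0 among the other Gencode M21 transcripts (near-identical: at least 99% over 100 bases or more); coordinates are M21's, on GRCm38. P-values measure the spread between mice. The same sample numbers do not mark shared animals. Named were all mRNAs and rRNAs, tRNAs that passed the filter or led their strand, and per nuclear list members past the threshold or with the 2 smallest p-values against wild-type, of which examples are given, plus all 7 genes of the duplicated segment. The members, gene lists and tests were chosen with earlier results of these data known. Alternatives were another scaling, no filter, no sex term, males only, a length trend, the replicate block, the compared groups alone, DESeq2 1.42.0 and each library left out. Some items that these rules name are not reported here.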

Additional observations from a re-analysis of the deposited data

Results flagged for a closer look

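In 16 of 136 groups of 4 libraries examined, the gap between 1 library and the nearest other one exceeded Dixon's 95% critical share of the group's range; chance gives about 5%. All values are CPM. In 5xFAD-Dp16 replicate 3, mt-Co2 was at 338.6 (other 3 libraries 174.3 to 183.8), mt-Atp6 at 101.6 (68.9 to 73.8), and the chromosome 1 copies Gm10222 at 30.8 (6.09 to 8.57), Gm28437 at 510.8 (127.8 to 138.0) and Gm10925 at 128.1 (90.2 to 93.9). In 5xFAD-Dp16 replicate 1, mt-Nd4l was at 15 (4.95 to 6.60). In Dp16, mt-Nd3 was at 139.7 in replicate 2 (10.4 to 13.3), Gm28437 at 868.6 in replicate 4 (141.7 to 182.9), Gm28661 at 417.8 in replicate 1 (161.8 to 175.3), mt-Tp at 6.13 in replicate 4 (2.97 to 3.38) and mt-Tv low at 2.26 in replicate 1 (2.97 to 3.09). In wild-type replicate 1, Gm29216 was at 435.0 (61.0 to 89.6). In 5xFAD, mt-Tv was at 5.93 (1.93 to 2.57) and mt-Tp at 6.46 (3.07 to 3.08) in replicate 3, mt-Ta at 3.25 in replicate 2 (1.13 to 1.36), and mt-Nd6 low at 121.6 in replicate 4 (127.5 to 127.9). The causes were not tested.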

How the results depend on the processing

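Of 2035 alternative values, 1933 kept their direction and their side of the threshold. The number of members called in 5xFAD against wild-type, 1 as reported, was 0 without a sex term, in males only, with a replicate block, with the length trend removed, with only the compared groups, and without wild-type replicate 2 and 5xFAD replicate 3; leaving out each library in turn gave 0 to 1. The fit with a replicate block gave mt-Nd6 a log2 value of 0.80 (edgeR adjusted p = 0.108). Deviations of same-numbered libraries correlated at a median of 0.00834 over 24 pairs, 5 of 16 libraries matched best with their own number, and the numbers do not pair the samples. With no count filter, 5, 1, 4, 3 and 4 members were called in 5xFAD-Dp16 and Dp16 against wild-type, in 5xFAD-Dp16 against 5xFAD and against Dp16, and in the interaction (0 each as reported), among 292, 43, 2215, 45 and 346 of 29145 genes. In 5xFAD-Dp16 against 5xFAD, 10 members were called in males only (3956 genes in all), 9 with only the compared groups (5020) and 3 with DESeq2 (781), against 0 genes as reported; the causes were not tested. The difference in males only and that with only the compared groups both rest on the 2 5xFAD males. In 5xFAD against wild-type DESeq2 called 234 genes, the fit without filter 235, the length trend 59, males only 5 and the compared groups alone 7, against 30. The reversed values, on the log2 scale, were as follows. In 5xFAD-Dp16 against wild-type, mt-Co3 gave 0 in males only, 0.068 with the length trend removed and 0.022 without the 2 libraries together (-0.23 was the lowest leaving out 1 library). In 5xFAD against wild-type, males only gave -0.11 for mt-Nd2, -0.049 for mt-Atp8, -0.47 for mt-Nd4l, -0.12 for mt-Nd4, -0.19 for mt-Nd5 and -0.01 for mt-Cytb, and mt-Nd3 gave 0.28 without the 2 libraries. In Dp16 against wild-type, mt-Nd4l gave 0.36 in males only. In 5xFAD-Dp16 against 5xFAD, mt-Cytb gave -0.02 without a sex term and mt-Co1 0.04 with library totals alone, 0.078 in males only, 0.136 with the length trend removed and 0.054 with only the compared groups. In 5xFAD-Dp16 against Dp16, mt-Nd1 gave -0.01 without a sex term, mt-Nd2 -0.018, -0.016 and -0.017 and mt-Co1 -0.061, -0.011 and -0.012 without a sex term, in males only and with only the compared groups. The mt-Nd6 interaction was 0.15 with the length trend removed. The log2 ratio of mt-Nd6 in 5xFAD-Dp16 against wild-type was 0.42 with the rRNAs as denominator and 0.11 in males only. Leaving out libraries in turn gave ranges that cross 0: -0.213 to 0.035 for that ratio, -0.044 to 0.354 for mt-Co2 in 5xFAD-Dp16, -0.38 to 0.05 for mt-Nd3 and -0.019 to 0.352 for mt-Nd5 in 5xFAD, -0.07 to 0.42 for mt-Co3 and -0.43 to 0.35 for mt-Nd4l in Dp16, each against wild-type, -0.021 to 0.179 for mt-Cytb in 5xFAD-Dp16 against 5xFAD, and -0.015 to 0.099 for mt-Co1 against Dp16. With library totals of 12483286 reads or more, depth limits mainly the tRNAs.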
